A study of Homo sapiens with 10 samples.

Results

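Clusters of neighbouring POLR2A peaks were described in HCT116, an established human colorectal carcinoma line. Peaks of the POLR2A list on chromosomes 1 to 22 and X were joined into a chain wherever the gap from the end of a peak to the start of the next was 5 kb or less, and chains of at least 4 peaks were kept. Of 19997 POLR2A peaks, 62 met this rule (0.31%), in 15 chains on 11 chromosomes. They were thus chosen by the positions of POLR2A peaks in the list described, so their number and spacing are given as a description only. Each target was profiled by CUT&Tag, in which an antibody directs a transposase to chromatin so that DNA near the bound protein is cut and tagged. The labels give all cells as WT and name no treatment, with 100000 to 200000 cells entering each sample. The samples were 3 for POLR2A, 3 for POLR1A, 3 for the histone mark H3K9me3 and 1 for the histone mark H3K4me3. A single peak list per target was used, so no value here has a replicate error.

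RNA polymerase II transcribes protein-coding genes and most long non-coding RNA genes, and POLR2A is its largest, catalytic subunit. The enzyme commonly pauses just downstream of a gene's start and can be slowed again past its end, and it is also found at enhancers, so a short stretch can hold several separate sites. POLR1A is the corresponding subunit of RNA polymerase I, which transcribes the ribosomal RNA genes. H3K4me3 marks active promoters, and H3K9me3 marks heterochromatin, which is common around centromeres and chromosome ends.

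Few of the chained peaks lay on a gene start. Of the 62 peaks, 7 covered a start listed by RefSeq (11.3%, 95% interval 4.66 to 21.9), against 23.5% of all POLR2A peaks. These 7 peaks belonged to 5 of the 15 chains, and in 4 of them the covering peak was also the highest of its chain: at CLDN4, ID1, TLCD1 and LINC00513. The promoters of those 4 genes are printed because they are the starts on which a chain's strongest signal sat. The EGR1 promoter is printed beside them because its peak stopped 31 bp short of the start, a choice made after its values were seen. Each runs from 250 bases before the start to 50 from it, 5′ to 3′ on the gene's strand, in RefSeq sequence of GRCh38.p14. Capitals mark matches, on either strand, to 7 motifs. They are the TATA box as TATAAA, the SP1 form GGGCGG, the NF-Y form CCAAT, the CREB form TGACGTCA, the AP-1 form TGANTCA, the E-box as CACGTG and the CArG box, a binding sequence of the serum response factor.
CLDN4 promoter (chr7:73830746-73831045, + strand): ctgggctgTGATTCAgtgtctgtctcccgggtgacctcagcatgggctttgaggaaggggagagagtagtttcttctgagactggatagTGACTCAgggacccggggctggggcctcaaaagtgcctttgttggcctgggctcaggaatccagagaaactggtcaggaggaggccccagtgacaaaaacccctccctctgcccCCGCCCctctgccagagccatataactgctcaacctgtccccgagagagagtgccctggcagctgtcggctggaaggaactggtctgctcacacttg
ID1 promoter (chr20:31605039-31605338, + strand): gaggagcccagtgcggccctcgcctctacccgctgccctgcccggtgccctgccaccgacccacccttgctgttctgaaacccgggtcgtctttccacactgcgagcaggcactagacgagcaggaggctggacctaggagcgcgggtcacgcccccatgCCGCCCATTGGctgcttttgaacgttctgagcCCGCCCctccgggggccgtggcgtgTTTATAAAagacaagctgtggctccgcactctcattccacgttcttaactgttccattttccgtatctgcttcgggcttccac
TLCD1 promoter (chr17:28726883-28727182, - strand): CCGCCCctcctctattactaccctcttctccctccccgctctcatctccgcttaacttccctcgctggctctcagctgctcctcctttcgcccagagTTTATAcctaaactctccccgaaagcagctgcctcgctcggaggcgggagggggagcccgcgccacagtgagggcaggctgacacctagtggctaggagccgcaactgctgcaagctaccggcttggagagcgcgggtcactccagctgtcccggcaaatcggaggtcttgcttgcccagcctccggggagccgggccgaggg
LINC00513 promoter (chr7:130913214-130913513, + strand): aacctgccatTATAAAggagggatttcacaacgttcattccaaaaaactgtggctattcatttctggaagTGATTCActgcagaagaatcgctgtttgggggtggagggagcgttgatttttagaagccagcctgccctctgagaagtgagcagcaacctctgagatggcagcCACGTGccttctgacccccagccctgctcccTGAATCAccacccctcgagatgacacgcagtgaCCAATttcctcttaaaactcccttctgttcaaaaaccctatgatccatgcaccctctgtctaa
EGR1 promoter (chr5:138465229-138465528, + strand): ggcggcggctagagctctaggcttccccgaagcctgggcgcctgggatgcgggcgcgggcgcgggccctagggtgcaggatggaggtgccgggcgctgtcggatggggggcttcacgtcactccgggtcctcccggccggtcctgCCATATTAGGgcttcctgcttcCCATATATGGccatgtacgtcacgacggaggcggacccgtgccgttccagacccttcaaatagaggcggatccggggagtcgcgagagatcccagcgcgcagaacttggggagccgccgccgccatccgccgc

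The 5 windows shared no single motif. Over all 35116 promoter windows of this length, GGGCGG was present in 44.95%, CCAAT in 34.6%, TATAAA in 11.5%, TGANTCA in 7.71%, CACGTG in 7.26%, TGACGTCA in 1.85% and the CArG box in 1.29%. In the CLDN4 window TGANTCA began 242 and 161 bases before the start, and GGGCGG began 47 bases before it. The ID1 window held TATAAA on both strands, overlapping each other 33 and 31 bases before the start, GGGCGG at 90 and 58 bases and CCAAT at 84 bases, the last directly beside a GGGCGG match. TLCD1 had TATAAA at 153 bases and GGGCGG at 250 bases before the start. LINC00513 had TATAAA at 240 bases, TGANTCA at 180 and 46 bases, CACGTG at 77 bases and CCAAT at 13 bases. In the EGR1 window 2 CArG boxes began 105 and 83 bases before the start, and 220 of the 300 bases lay under a chained peak. These matches are letters in a window and say nothing about binding in these cells.

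The ID1 chain also covered a microRNA gene, MIR3193, whose hairpin lies at chr20:31607186-31607240 inside peak 3 of that chain. Its mature product is printed because it is the only microRNA in any chain, with the seed (bases 2 to 8) in capitals.
hsa-miR-3193: uCCUGCGUaggaucugaggagu

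The chained peaks had a median height near that of the list, with few very strong or very weak peaks. Fold enrichment, the authors' linear ratio for each peak, ranged from 3.28 to 15.1 in the 62 peaks with a median of 5.30, and the other 19935 POLR2A peaks had a median of 5.47 and a highest value of 53.1. Of 5 groups of equal size by fold enrichment, the strongest held 3 of the 62 (4.84%, against 20.05% of the others). The weakest also held 3 (4.84%, against 20.05%). No chained peak was among the 1000 highest of the list. The best placed, on chromosome 5, ranked 1141. Median width was 276 bp, against 244 bp for the other peaks. Of the 62, 34 had a −log10 q of 5 or more (54.8%, 95% interval 41.7 to 67.5), as did 48.03% of the others. Spans of the chains ran from 2624 bp at NTSR1 to 12944 bp at ANO8 and GTPBP3, with a median of 7228 bp. Peaks filled 6.41% to 45.2% of a span.

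**Figure D1:**
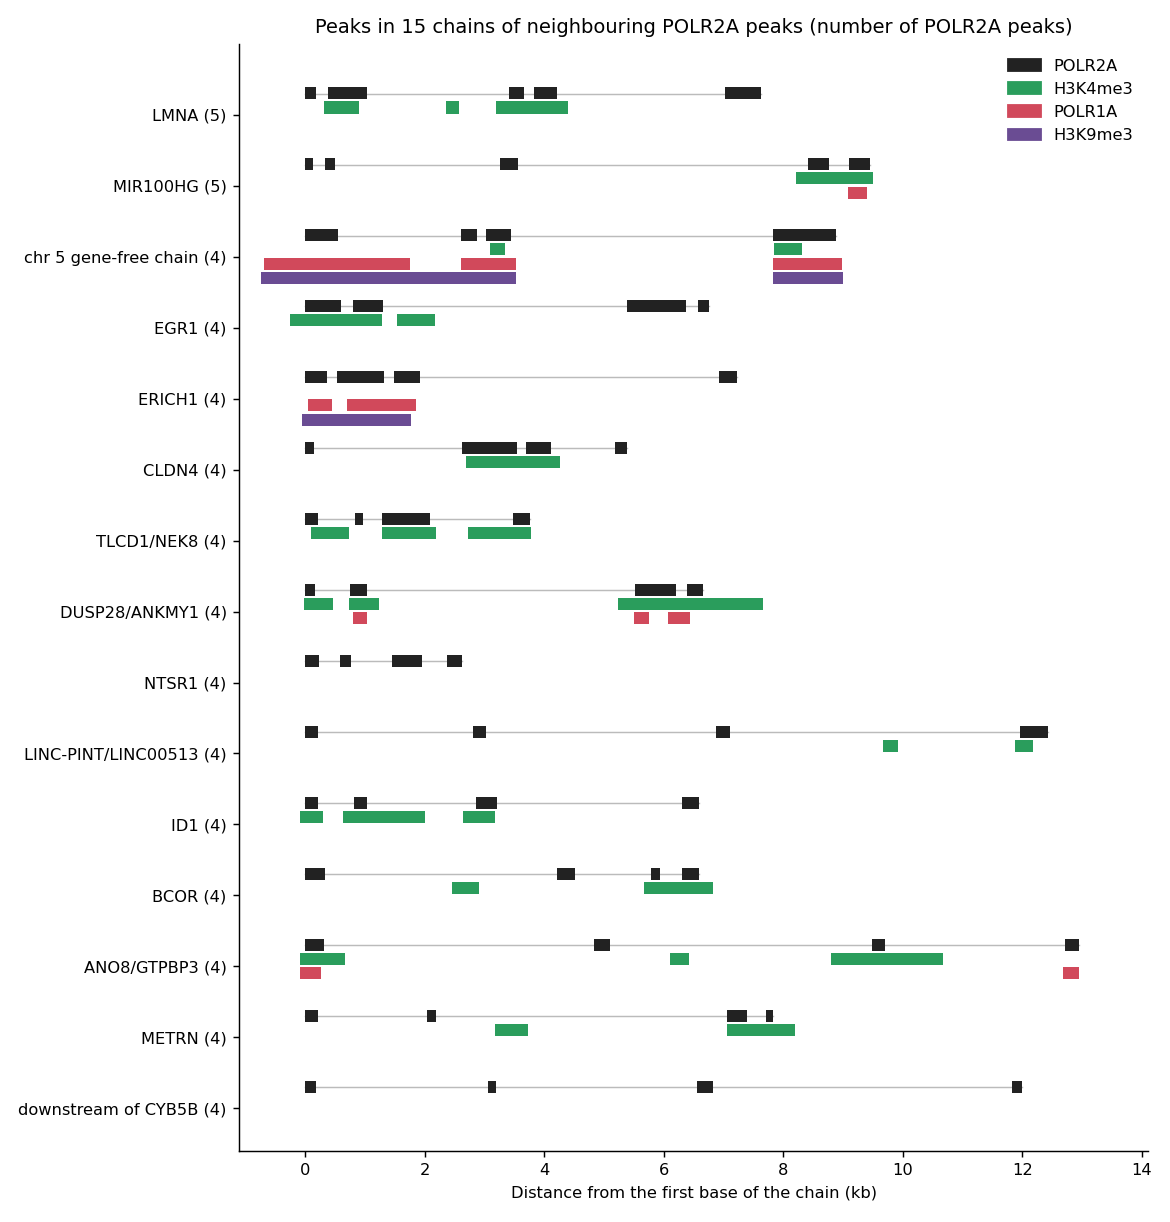
Map of the 15 chains, each drawn from its first base (horizontal axis, kb), with POLR2A peaks in black and the H3K4me3, POLR1A and H3K9me3 peaks of the same stretch below them. H3K4me3 peaks lie under only some of the peaks in most chains, H3K9me3 appears in 2 chains, and the NTSR1 chain and the chain downstream of CYB5B hold POLR2A alone.

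By the marks they met, the peaks fell mainly into those on H3K4me3 and those on nothing else, as did POLR2A peaks across the list. H3K4me3 overlapped 28 of the 62 peaks (45.2%, 95% interval 32.5 to 58.3), against 50% of all POLR2A peaks. POLR1A overlapped 13 (21.0%, 11.7 to 33.2), against 13.7%, and H3K9me3 overlapped 7 (11.3%, 4.66 to 21.9), against 3.53%. The 2 histone marks met in the same chain at 1 place only, the chromosome 5 chain. A further 28 peaks, spread over 13 chains, overlapped none of the other lists (45.2%, against 46.97% of all POLR2A peaks). Those 28 had a median fold enrichment of 4.42, the 21 with H3K4me3 alone 5.25, the 5 with POLR1A and H3K4me3 6.19 and the 5 with POLR1A and H3K9me3 7.19. Peaks of a chain share their neighbourhood, and often a single broad peak of another target, so they are not independent and the intervals cover counting error only. The 28 peaks on H3K4me3 lay on 21 H3K4me3 peaks, and in 7 chains at least 2 of the peaks sat on the same one.

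**Figure D2:**
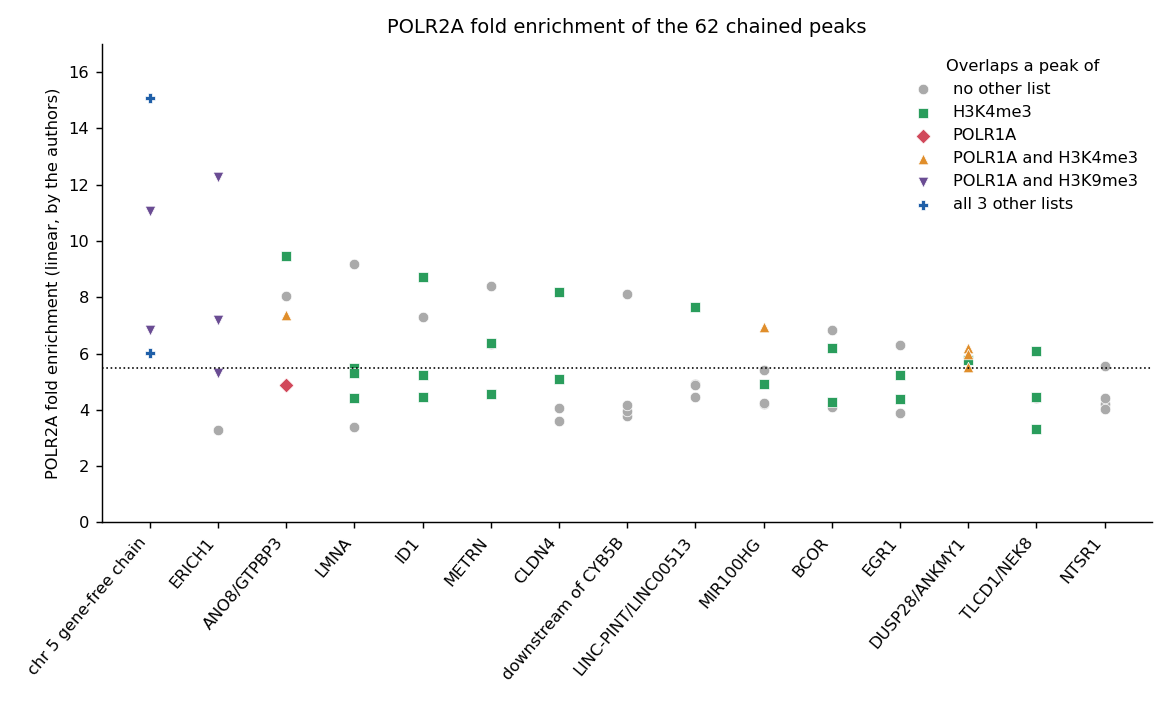
POLR2A fold enrichment (vertical axis, linear, by the authors) of each of the 62 chained peaks, by chain, with the symbol showing which other lists the peak overlaps and a dotted line at the median of the POLR2A list. The highest points are in the chromosome 5 chain (15.1) and the ERICH1 chain (12.3), the 2 chains with H3K9me3.

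Several chains lay around gene starts, among them those of CLDN4, ID1 and EGR1, genes of an epithelial junction, of growth factor signalling and of the early response to stimuli. CLDN4 encodes claudin 4, a tight junction protein of epithelia. Its chain, on chromosome 7 from 73828245 to 73833621, had peaks of 3.59, 8.17, 5.08 and 4.05. Peak 2, the highest, ran from 118 bp before the start to 786 bp past it and covered the promoter printed above in part, 168 of its 300 bases. Peaks 2 and 3 shared a 1568 bp H3K4me3 peak of fold enrichment 8.72 that spanned most of the gene. Peak 1, whose near edge was 2605 bp upstream, and peak 4, past the gene's end toward METTL27, lay on no other list. The signal of this short gene was thus split into a marked pair at the start and body and a weaker unmarked peak on either side.

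ID1 encodes an inhibitor of DNA binding by helix-loop-helix transcription factors and is a well known target of BMP signalling. Its chain, on chromosome 20 from 31604262 to 31610854, had values of 4.47, 8.71, 5.23 and 7.29. The highest, peak 2, covered the start of ID1 and reached 216 bp upstream of it, on an H3K4me3 peak of 7.17. Peaks 1 and 3 lay on separate, lower H3K4me3 peaks of 2.70 and 3.00. Peak 3 covered MIR3193 downstream of the gene, and peak 4, 5276 bp past the start at its near edge, had the next highest POLR2A value and no mark. This was 1 of 4 chains that kept 4 sites after peaks within 500 bp of each other had been joined. The others were at LINC-PINT, ANO8 with GTPBP3, and downstream of CYB5B.

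EGR1 encodes a zinc finger transcription factor induced within minutes by serum and growth factors. Its chain, on chromosome 5 from 138464149 to 138470904, had values of 5.25, 4.38, 6.29 and 3.88. Peaks 1 and 2 lay upstream of the start, from 1330 to 724 bp and from 531 to 31 bp before it, on a shared H3K4me3 peak of 7.70. Peaks 3 and 4 lay past the annotated end of the gene (138469303), from 4052 to 5425 bp after the start, and carried no mark. The highest value, that of peak 3, was therefore at the downstream end. No POLR2A peak lay in the gene body itself, and with peaks within 500 bp joined the chain became 2 sites on opposite sides of the gene.

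Further chains lay where pairs of genes start or end close together. On chromosome 17, from 28725272 to 28729030, the chain of TLCD1, which encodes a membrane lipid regulator, and NEK8, which encodes a kinase of the primary cilium, had values of 3.31, 4.41, 6.08 and 4.47. Peaks 2 and 3 covered alternative starts of TLCD1 and peak 4 covered the start of NEK8, so 3 of the 7 start-covering peaks were here. H3K4me3 peaks of 2.40, 3.72 and 4.89 lay under peaks 1, 3 and 4. The ribosomal protein gene RPL23A came within 1 kb of peak 1, but its highest peak, of 13.1, lay outside the chain. The nearest POLR2A peak outside was 5042 bp away, the smallest such distance of any chain and only just past the limit of the rule.

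DUSP28, a dual specificity phosphatase gene, and ANKMY1, an ankyrin repeat gene, lie head to head on chromosome 2 and overlap at their starts. Their chain, from 240560273 to 240566933, had values between 5.52 and 6.19. It was the only chain with H3K4me3 under every peak, the mark reaching 7.05 and its widest peak 2700 bp. POLR1A lay under peak 2 (5.78), and peaks 3 and 4 shared a POLR1A peak of 4.70, with another of 4.54 under peak 3. Peak 1 covered a start of DUSP28, and peaks 3 and 4 lay past the end of that gene.

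METRN, which encodes the secreted factor meteorin, and ANTKMT, a mitochondrial lysine methyltransferase gene, lie side by side on chromosome 16 within 1 Mb of the chromosome end. Values in their chain, from 712839 to 720673, were 8.40, 6.33, 6.36 and 4.58. The highest, peak 1, was intergenic and unmarked, and peak 2 lay 240 to 90 bp before the METRN start, also unmarked. Peaks 3 and 4, between the end of METRN (719655) and the start of ANTKMT (721146), shared an H3K4me3 peak of 6.83.

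On chromosome 19 a chain from 17327827 to 17340770 spread over ANO8, which encodes an anoctamin of the endoplasmic reticulum, and GTPBP3, which encodes an enzyme of mitochondrial tRNA modification. Its values of 7.36, 8.04, 9.47 and 4.90 lay mostly above the list median of 5.47, and its gaps, 3006 to 4527 bp, were all wide. Peak 1 lay on H3K4me3 (9.80) and POLR1A (6.06). Peak 3, the highest, ended 20 bp before an inner start of GTPBP3, on an H3K4me3 peak of 6.73. Peak 4 met POLR1A (4.77) without H3K4me3, the only chained peak on POLR1A alone, and peak 2 met neither.

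BCOR, on the X chromosome, encodes the BCL6 corepressor, a subunit of a Polycomb complex. Its 4 peaks, from 40169710 to 40176304, had values of 4.10, 6.82, 4.29 and 6.18 and lay 973 to 7567 bp downstream of a start. The start itself was not covered. Peaks 3 and 4, nearest to it, shared an H3K4me3 peak of 6.87, and peaks 1 and 2, deeper in the gene, had none, although peak 2 was the highest.

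Other chains lay inside long genes, those of LMNA and MIR100HG without a listed start in the span. LMNA encodes lamins A and C of the nuclear envelope, and its chain of 5, from 156122923 to 156130540 on chromosome 1, was 1 of the 2 longest by number. Values were 3.40, 5.50, 5.29, 4.42 and 9.18. The chain began 16207 bp downstream of the nearest listed upstream start (156106716). H3K4me3 lay under peak 2 (3.13) and, as a single peak of 4.50, under peaks 3 and 4, while peak 5, the highest, was unmarked. The highest LMNA peak, of 17.5 on H3K4me3 and POLR1A, lay outside the chain, 8140 bp before it.

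MIR100HG is a long non-coding RNA gene of 394.5 kb that hosts the miR-100 cluster of microRNAs. Its chain of 5, from 122194061 to 122203513 on chromosome 11, had values of 4.19, 4.25, 5.42, 4.91 and 6.96. Peaks 4 and 5 shared a 1288 bp H3K4me3 peak of 8.93, and peak 5 also lay on a POLR1A peak of 7.73. Peaks 1 to 3 met no other list. Peak 5 lay 105974 bp downstream of the nearest listed upstream start. In all the gene held 12 POLR2A peaks, 7 of them outside the chain.

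LINC-PINT, a long non-coding RNA gene induced by p53, held a chain on chromosome 7 from 130901442 to 130913869 with values of 4.92, 4.45, 4.90 and 7.64. Peak 4, the highest, covered the start of LINC00513, which runs on the opposite strand, 92 to 559 bp upstream of an inner start of LINC-PINT. It lay on an H3K4me3 peak of 6.40. Peaks 1 to 3, 4755 to 11868 bp downstream of that inner start, met no other list.

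The NTSR1 chain was the most compact and had no mark. NTSR1 encodes the receptor of neurotensin, a gut and brain peptide. Its 4 peaks, from 62761955 to 62764578 on chromosome 20, had values of 5.56, 4.21, 4.04 and 4.44 and filled 45.2% of 2624 bp across the 3′ end of the gene (62762771). None met H3K4me3, POLR1A or H3K9me3. The gene body and 1 kb beyond its ends held 12 POLR2A peaks in 55.9 kb, or 2.15 per 10 kb, the highest density among the 33 genes with at least 10 POLR2A peaks, ahead of PLEC with 1.57. Of these 12 peaks, 1 lay on H3K4me3 and 2 on POLR1A. The highest, of 13.0 in the gene body, met POLR1A and was in a separate chain of 3. With gaps of up to 10 kb the NTSR1 peaks formed the chain with the most peaks of any, 11 from 62734508 to 62764578.

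The remaining chains lay away from genes or in heterochromatin. Downstream of CYB5B, which encodes a cytochrome b5 of the outer mitochondrial membrane, 4 peaks from 69470380 to 69482366 on chromosome 16 had values of 3.78, 3.95, 8.12 and 4.18. The chain began 4116 bp past the gene, filled only 6.41% of its span and met no other list. Its last gap was 4997 bp, so it stood on the edge of the rule.

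The chain of chromosome 5 from 49658354 to 49667238 lay in a gene-free interval of 4.70 Mb (45696381 to 50396191), 728954 bp from the nearest protein-coding gene, EMB. Its values were 11.05, 6.83, 6.02 and 15.1, the last being the highest of any chained peak, and every peak lay on both POLR1A and H3K9me3. POLR1A was at 9.02, 5.88 and 10.5 on its 3 peaks there, H3K9me3 at 5.76 and 9.58 on its 2, and H3K4me3 lay under peaks 3 and 4 at 3.59 and 6.23. In peaks 2 and 4 the POLR2A and POLR1A peaks began at the same base. At peak 4 that base was 49666175, and the H3K9me3 peak there began at 49666174. The other H3K9me3 peak ended at 49661886, and the POLR1A peak under peaks 2 and 3 at 49661885. The treatment of reads from repeated sequence is not given in the sources used here. Its part in these values was not tested.

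ERICH1, a glutamate-rich protein gene within 1 Mb of the end of chromosome 8, held the other chain with H3K9me3, from 629331 to 636558. Values were 5.31, 7.19, 12.3 and 3.28. Peaks 1 to 3 lay on a single H3K9me3 peak of 6.23, and on POLR1A peaks of 4.22 and 5.28, with no H3K4me3. Peak 4, the lowest of all chained peaks, lay 4996 bp further on and met none. The 7 chained peaks on H3K9me3 were these 3 and the 4 of chromosome 5, and all 7 were also on POLR1A.

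The higher POLR1A and H3K9me3 shares of the chained peaks were not seen away from chromosome ends and gene-free intervals, where the chromosome 5, ERICH1 and METRN chains lay. POLR1A overlapped 21.0% of chained peaks and 13.7% of the others, but the interval of the chained share, 11.7 to 33.2, held the other value. Outside 1 Mb of chromosome ends and of gene-free intervals, 50 chained peaks were left, of which 6 lay on POLR1A (12%, 4.53 to 24.3) against 13.2% of the others. H3K9me3 lay under 0 of these 50, which allows a share of up to 7.11%, against 3.01%. Without the chromosome 5 chain alone, H3K9me3 lay under 3 of 58 (5.17%, 1.08 to 14.4) and POLR1A under 9 (15.5%, 7.35 to 27.4). For H3K4me3 the share was 48% of the 50 (33.7 to 62.6) and 50.1% of the others. By chromosome, the chained share was the higher on 5 of 11 chromosomes for POLR1A, 4 for H3K4me3 and 2 for H3K9me3. Most of these chromosomes held 1 chain, and a chained share of 0 counted as lower, so the tally says little about direction.

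Per peak, the H3K4me3 share was lower and the POLR1A and H3K9me3 shares higher in chains of 4 or more than in chains of 3. With 62 peaks in 15 chains, this does not show a break in pattern. H3K4me3 lay under 47.9% of single peaks, 62.7% of peaks in chains of 2, 62.6% in chains of 3 and 45.2% in chains of 4 or more. The last interval, 32.5 to 58.3, overlapped that of chains of 3, 57.4 to 67.6. POLR1A lay under 13.8%, 13.3%, 13.8% and 21.0% in the same order, and H3K9me3 under 3.52%, 3.33%, 4.34% and 11.3%. The share of peaks covering a gene start went down in every step: 24.2%, 20.3%, 16.3% and 11.3%. That share is per peak, and a longer chain adds more peaks for each start it holds. By chain, 5 of the 15 had a peak covering a start, and the count by chain is not given for chains of 2 or 3. Counted by chain, H3K4me3 lay on 12 of the 15 chains (80%, 51.9 to 95.7), against 84.6% of chains of 3. POLR1A lay on 5 (33.3%, 11.8 to 61.6), against 30.1%, and H3K9me3 on 2 (13.3%, 1.66 to 40.5), against 8.13%. By chain, the shares in chains of 3, just outside the rule, were within the intervals of those inside it for all 3 targets. With 15 chains this shows little, as the POLR1A and H3K9me3 intervals also held the shares of single peaks, 13.8% and 3.52%. A longer chain also has more peaks that can meet a mark.

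**Figure D3:**
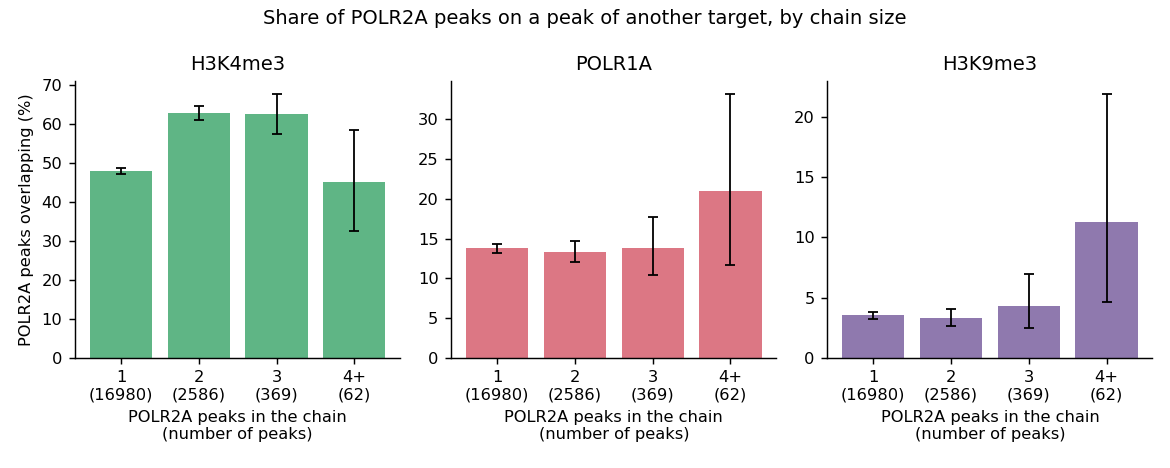
Share of POLR2A peaks (vertical axis, percent, a separate scale in each panel) on an H3K4me3, POLR1A or H3K9me3 peak, by the number of POLR2A peaks in their chain. Bars are shares and whiskers 95% binomial intervals for counting error only; the intervals of the longest chains are wide because they hold 62 peaks.

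Among the other POLR2A peaks, overlap with POLR1A and H3K4me3 was higher the stronger the peak, so shares were also set side by side within 5 groups of equal size by fold enrichment, from 1 (weakest) to 5. Group 3 held 22 chained peaks, of which 6 met POLR1A (27.3%, 95% interval 10.7 to 50.2) against 6.81% of the others. Those 6 were peaks 2 to 4 at DUSP28 and peaks of the chromosome 5, ERICH1 and ANO8 chains, so they are not independent. Group 4 held 14, of which 4 met POLR1A (28.6%, 8.39 to 58.1) against 14.3%. Those 4 were in the chromosome 5, ERICH1, MIR100HG and ANO8 chains. For H3K4me3, group 3 gave 63.6% against 53.3%, and group 4 gave 42.9% against 74.2%. Group 5 held only 3 chained peaks, in the chromosome 5 and ERICH1 chains, and all 3 were on POLR1A and H3K9me3. Groups 1 and 2 held 3 and 20, none of them on either. Weighted to the fold enrichment of the chained peaks, the share of other peaks was 8.81% for POLR1A, 48.6% for H3K4me3 and 3.03% for H3K9me3. Weighted to their width it was 16.2%, 54.8% and 3.85%. The groups and weights include the chains near chromosome ends and gene-free intervals.

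**Figure D4:**
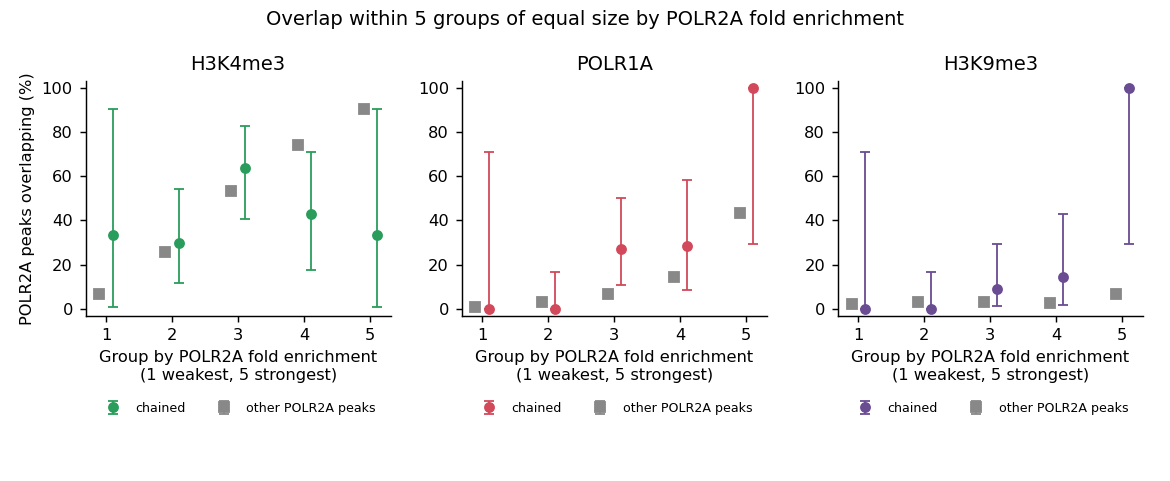
Share of POLR2A peaks on each other target (vertical axis, percent) in 5 groups of equal size by POLR2A fold enrichment, for chained peaks (coloured, with 95% binomial intervals for counting error) and all other POLR2A peaks (grey squares). For POLR1A, chained peaks lay above the others in groups 3 to 5 and at 0% in groups 1 and 2. For H3K4me3 they lay above the others in groups 1 to 3 and below them in groups 4 and 5. Intervals were wide, and group 5 held only 3 chained peaks. Peaks of a chain are not independent.

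By summit position, 21 chained peaks lay within 1 kb of an end of a protein-coding gene (33.9%, 22.3 to 47.0), against 37.1% of all POLR2A peaks. Another 18 lay in protein-coding bodies (29.0%, against 37.0%), 9 in other genes (14.5%, against 7.19%) and 14 between genes (22.6%, against 18.6%). The 9 were all in the LINC-PINT and MIR100HG chains. H3K4me3 lay under 15 of the 21 at gene ends and under 13 of the other 41. Peaks on H3K4me3 were a little stronger and wider, with medians of 5.65 and 339 bp, against 4.90 and 240.5 bp for those off it. In 8 of the 15 chains the highest peak was on H3K4me3. No list-wide values stand beside these counts and medians, so they are not shown to be particular to chains. Among the other POLR2A peaks the H3K4me3 share also went up with fold enrichment, from 6.58% in the weakest group to 90.5% in the strongest.

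The gaps inside chains covered the whole range the rule allows. The 47 gaps ran from 147 to 4997 bp with a median of 1815 bp, against 937.5 bp for all gaps of 5 kb or less. Of them 16 were 500 bp or less (34.04%), against 35.3% of all gaps of 5 kb or less, and 10 were over 4 kb (21.3%, against 12.5%). With peaks within 500 bp counted as 1 site, 4 chains kept 4 sites, 8 had 3 and 3 had 2. Across the whole list, gaps of 5 kb or less were 1586 of 19974 (7.94%).

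The limit of 5 kb fell at a step in the list itself. Neighbouring POLR2A peaks 4 to 5 kb apart numbered 199, and those 5 to 6 kb apart 428, after a low of 138 at 3 to 4 kb. H3K9me3 showed the same step, from 139 to 256, and H3K4me3 a smaller one, from 254 to 321, whereas POLR1A gave 18 and 23. Of the 15 chains, 3 had a further POLR2A peak within 6 kb and 7 within 10 kb. Among the 123 chains of 3, the nearest misses, 14 had one within 6 kb, and 47 within 10 kb. The weakest peaks were also scarcer beside a close neighbour: fold enrichment was under 3.5 in 9.81% of peaks with a neighbour within 5 kb, 16.8% at 5 to 6 kb and 22.5% beyond. The cause of the step was not tested.

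**Figure D5:**
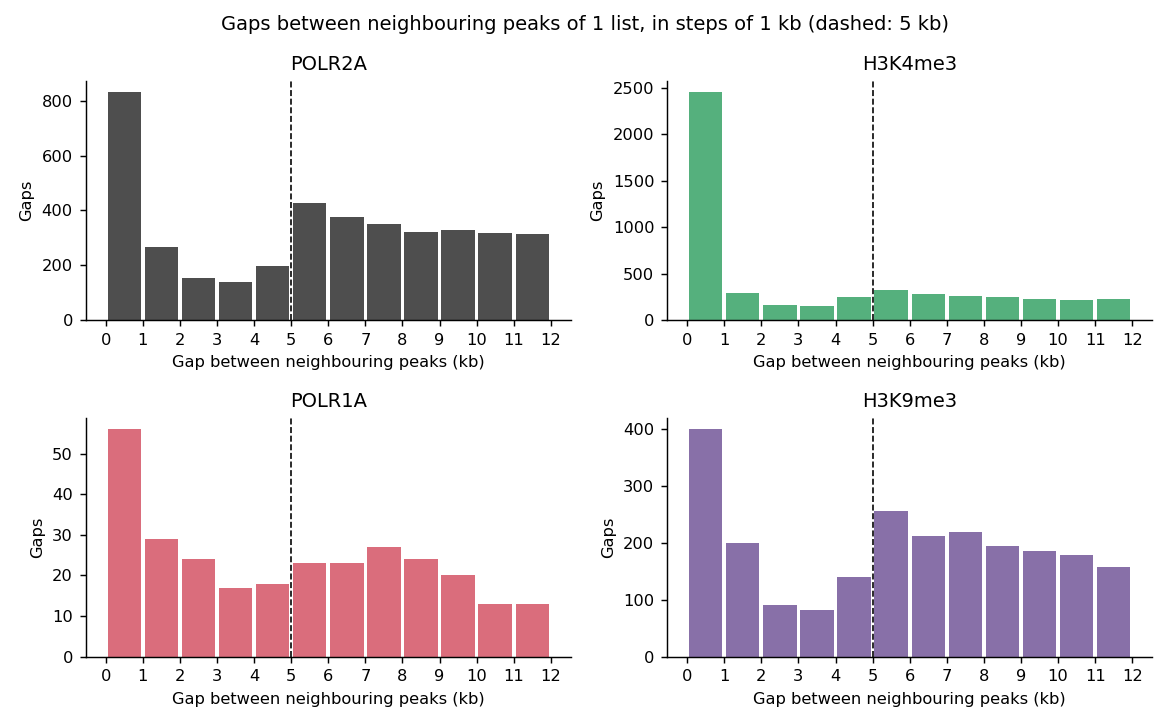
Number of gaps between neighbouring peaks (vertical axis, a separate scale in each panel) by their length in steps of 1 kb, for each of the 4 lists, with a dashed line at 5 kb. In the POLR2A panel the count goes from 199 just below the line to 428 just above it.

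Chains were rare at genes of any kind. Of 19821 protein-coding genes, 17 had a chain in the body or within 1 kb of an end (0.0858%), as did 4 long non-coding RNA genes and the 1 microRNA gene. A POLR2A peak of any sort was at 53.2% of protein-coding genes, and a chain of at least 3 peaks at 184 (0.928%). Of 29 gene lists, 4 held a gene with a chain of 4 or more: EGR1 among 35 immediate early genes (32 with POLR2A), CLDN4 among 28 epithelial junction genes (22), ID1 among 17 TGF-beta and BMP targets (11) and RPL23A among 86 cytosolic ribosomal protein genes (77). A single gene in a list shows nothing about the list.

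A chain of at least 3 peaks was at 14 of the 29 lists, to be read against the 0.928% of all protein-coding genes. Only a gene with a POLR2A peak can have one, and the 184 genes were among 10552 such protein-coding genes. The lists with 2 or more such genes had POLR2A at 57.97% (histone) to 92.3% (MAPK pathway) of their genes, against 53.2% of all. Replication-dependent histone genes, which sit in dense clusters, had 12 of 69 at such a chain, among them H2BC21, H2AC20, H4C2 and H3C2, and neighbours can share a chain. Ribosomal protein genes had 6 of 86, including RPL8, RPLP0 and RPL13. Immediate early genes had 3 of 35, CCN1, EGR1 and ZFP36, and translation factors 3 of 38, EIF4G1, EEF1G and EEF2. With 2 genes each were glycolysis (PFKFB4 and GAPDH, of 20), MAPK pathway feedback and targets (SPRED2 and ERBB3, of 26) and YAP/TEAD targets (CCN1 and MYOF, of 25). Lists without such a chain included some with POLR2A at few genes, as HOX (11 of 39), keratins (4 of 55) and clustered protocadherins (0 of 53). They also included lists with POLR2A at most genes: cyclins and CDKs (29 of 31), cholesterol and lipid synthesis (18 of 20), snoRNA host genes (18 of 21) and polymerase II machinery with Mediator (30 of 40). The snoRNA hosts are long non-coding RNA genes, of which 0.229% had such a chain. At shares this low, its absence from a short list shows nothing about the list. TCF7L2, a DNA-binding partner of beta-catenin, had the most POLR2A peaks of any gene, 17, yet no chain of 4.

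Of 28 intestinal epithelium marker genes, 11 had a POLR2A peak (39.3%), against 53.2% of all protein-coding genes. Epithelial adhesion and junction genes had 22 of 28 (78.6%). The marker lists of other cell types had 5 of 16 fibroblast, 5 of 17 leukocyte, 9 of 17 neuron and 3 of 16 hepatocyte genes. Of these 6 lists only the junction genes had a gene with a chain, CLDN4. Peaks of POLR2A show where the enzyme was found, not how much RNA was made.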

How the data were processed

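CUT&Tag peak lists for POLR2A, POLR1A, H3K4me3 and H3K9me3 in HCT116 cells were used as the authors deposited them, 1 list per target. The submitters' processing notes name STAR, SAMtools 1.6, deepTools 3.1.1 and the builds GRCh38 and hg38, without roles. The deposited lists carry the name of the peak caller MACS2. With which settings it was run, against which control and on which pool of replicates could not be learned. Fold enrichment is a linear ratio from the authors' deposited lists, used only within a list. The −log10 q values, also deposited by the authors, all lay above 1. Read depth is unknown.

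Peaks on chromosomes 1 to 22 and X were chained (gap of 5 kb or less, at least 4 peaks) and overlaps counted from 1 shared base, with Python 3.11.15, numpy 2.4.6, pandas 2.3.3 and scipy 1.17.1. Chaining and overlap were tested on simulated data. Genes came from a RefSeq table of 59792 genes on GRCh38.p14, of which 789 on scaffolds or patches were left out. Starts and strand came from RefSeq promoter windows (35116). That table has no exons. With 1 list per target no test across samples was possible, and shares carry exact (Clopper-Pearson) 95% intervals that cover counting error only. Because there are 15 chains, all were described. Members, gene lists and naming rule were chosen with earlier results of these data known. Alternatives covered gap, chain length, −log10 q, overlap, margins and comparison group.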

Additional observations from a re-analysis of the deposited data

How the results depend on the processing

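No paired analysis was possible because the lists name no replicate. The main values were 15 chains, 17 protein-coding genes, 33.3% of chains with POLR1A, and differences in overlap, chained minus other peaks, of -4.89 percentage points for H3K4me3, 7.25 for POLR1A and 7.78 for H3K9me3. Of 61 values under alternatives, 30 stayed within the interval of the main value (counts: within 1.5 times) and the others did not. Over the 11 alternatives the difference took the opposite sign in 4 for H3K9me3, 4 for POLR1A and 3 for H3K4me3. Gaps of up to 2.5 kb gave 4 chains, 7 genes, 0% of chains with POLR1A, -13.7 points for POLR1A and -3.53 for H3K9me3. Gaps of up to 10 kb gave 162 chains, 320 genes, 6.69 points for H3K4me3 and 0.909 for H3K9me3. Chains of at least 3 numbered 138, at 184 genes, with 10.3 points for H3K4me3 and 1.85 for H3K9me3. Chains of at least 5 numbered 2, at 1 gene, with -3.74 points for POLR1A and -3.53 for H3K9me3. At a −log10 q of at least 5, 2 chains were left, at 1 gene, with -24.98 points for H3K4me3, 37.1 for POLR1A and 48.2 for H3K9me3. The 2 were the chromosome 5 chain and 4 peaks at LMNA, and all POLR1A and H3K9me3 overlaps were in the chromosome 5 chain. Without the margins POLR1A was at -1.16 and H3K9me3 at -3.01 points. Of the alternatives chosen after seeing the data, gaps of up to 6 kb gave 36 chains, 55 genes and 10.7 points for H3K4me3. Peaks within 500 bp counted as 1 site gave 4 chains, 3 genes, -1.24 points for POLR1A and -3.53 for H3K9me3. Without the chromosome 5 chain H3K9me3 was at 1.67 points. These settings change which peaks are counted and how many; the cause was otherwise not tested. With 62 peaks, a difference of a few percentage points is not detectable.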
